A study of Mus musculus with 4 samples.

Results

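The genes described here are 10 genes of the contractile apparatus of early heart and smooth muscle: the actins Actc1 and Acta2, the actin-binding protein Tagln, the myosin light chains Myl7 and Myl4, the troponin subunits Tnnt2, Tnni1 and Tnnc1, the Z-disc protein Actn2 and the myosin heavy chain Myh6. They were chosen by name, with earlier results of these data known. Each was read on the probe set that carries its symbol alone and has the highest mean over the 4 arrays. All 10 were found among the 18193 genes measured, on 16 probe sets in all, and 7 of them had a mean of at least 6 log2 units. Values are RMA log2 expression values, where a difference of 1 is a doubling and values near the bottom of the scale are compressed.

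The cells came from TT2, a mouse embryonic stem cell line, and both groups carried a Venus reporter knocked into Etv2 in the heterozygous state. They were grown to day 5, as the labels give it, on a layer of OP9 stromal cells, a mouse line from bone marrow, and sorted for Flk-1, the product of Kdr and a receptor for VEGF. The Flk-1+/Etv2+ group held the cells with Venus (2 arrays) and the Flk-1+/Etv2- group the cells without it (2 arrays). Etv2 is an ETS factor of blood and endothelium. The labels name 1 cell line, do not say how many clones were used, and do not state that the 2 arrays of a group came from separate cultures, so the spread between them may be technical. The comparison addresses whether muscle contractile transcripts in mesoderm with Flk-1 differ between cells with and without an active Etv2 reporter.

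In muscle, myosin heavy chains pull on actin filaments, and each heavy chain carries an essential and a regulatory light chain. In striated muscle the troponin complex sits with tropomyosin on the actin filament and makes contraction depend on calcium, while alpha-actinin anchors actin filaments at the Z-disc. Flk-1 positive mesoderm can give rise to blood, endothelium, cardiac muscle and smooth muscle, and several contractile genes are switched on before any sarcomere is visible. Many of them are known targets of serum response factor, which binds a sequence called the CArG box.

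Etv2 measured 12.64 and 12.41 on the Flk-1+/Etv2+ arrays, against 12.03 and 11.87 on the Flk-1+/Etv2- arrays. Both Venus positive arrays thus lay higher, and the signal was high in both populations. Kdr measured 12.64 and 12.81 on the Flk-1+/Etv2+ arrays and 12.51 and 12.68 on the Flk-1+/Etv2- arrays, and the groups overlapped. The array medians lay between 5.46 and 5.52. At an adjusted p of 0.05 limma called 0 of the 18193 genes, which is 0% in either direction, and so 0 of the 10 contractile genes higher and 0 lower. Without adjustment, 1287 of all genes were higher (7.07%) and 844 lower (4.64%) at a p under 0.05. A mean-variance trend combined with robust estimation gave 81 calls as higher (0.445%) and 31 as lower (0.170%), with 0 contractile genes among them. The differences below are therefore sizes with their errors, none of which passed the test over all genes.

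Lower values in the Flk-1+/Etv2+ cells were the common pattern of the contractile genes, with the smallest p for Actc1, Myl7 and Myl4. Of the 10 genes, 6 had both Flk-1+/Etv2+ arrays below both Flk-1+/Etv2- arrays, against 17.0% of all genes. None of the 10 had arrays apart in the opposite direction, against 22.4% of all genes. Actc1, Myl7, Myl4 and Tnnc1 (4 of 10) were lower at an unadjusted p under 0.05, against 4.64% of all genes, and 0 of 10 were higher, against 7.07%. The median difference of the 10 genes was -0.34, and that of all genes was 0.01. Since the 10 genes were chosen with earlier results of these data known, these shares and medians are descriptions and carry no test. Differences are Flk-1+/Etv2+ minus Flk-1+/Etv2-, each with its standard error from the fit (SE) and n = 2 arrays per group. In RNA of sorted populations, fewer cells expressing a gene and less RNA per cell cannot be told apart.

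**Figure D1:**
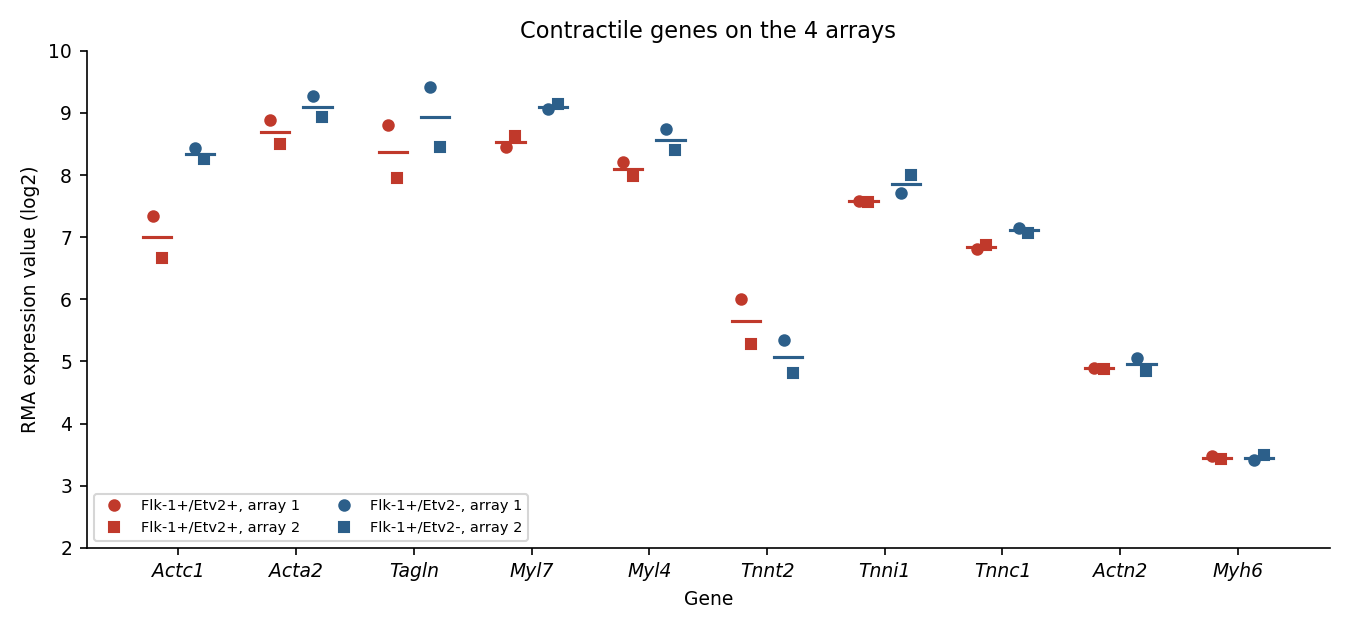
RMA expression value (log2, vertical axis) of the 10 contractile genes (horizontal axis) on each array, with the Flk-1+/Etv2+ arrays in red to the left of the Flk-1+/Etv2- arrays in blue. Circles are arrays numbered 1, squares arrays numbered 2, and short lines the group means. Actc1 has the widest gap between the groups, Tagln has a wide spread within both, and Tnnt2 is the gene with a higher mean in the Flk-1+/Etv2+ cells.

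Actc1, the actin of cardiac sarcomeres, had the largest difference. Its probe set, 1415927_at, measured 7.34 and 6.67 on the Flk-1+/Etv2+ arrays, against 8.43 and 8.25 on the Flk-1+/Etv2- arrays. The groups did not overlap, and the Flk-1+/Etv2+ arrays were also the more spread out. The difference was -1.33 (SE 0.24, 95% interval -1.97 to -0.69, limma adjusted p = 0.141), or 2.52-fold lower. Actc1 was the only gene of the 10 at least 2-fold lower, where 0.423% of all genes were, and it ranked 31 from the lowest difference among all genes.

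Acta2, the smooth muscle actin that is also made in the early heart tube, had a smaller difference. On 1416454_s_at it measured 8.889 and 8.499 in the Flk-1+/Etv2+ cells, against 9.26 and 8.94 in the Flk-1+/Etv2- cells. The groups were apart by the narrow gap between 8.89 and 8.94, and overlapped once arrays were centred on their medians. The difference was -0.41 (SE 0.19, 95% interval -0.90 to 0.09, adjusted p = 0.511). The suffix of this probe set marks a design that can also bind related transcripts, and the other 2 Acta2 probe sets read near the bottom of the scale, between 3.01 and 3.53 on all arrays.

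Tagln, an actin-binding protein of smooth muscle known as SM22, measured 8.80 and 7.96 in the Flk-1+/Etv2+ cells and 9.42 and 8.44 in the Flk-1+/Etv2- cells. The groups overlapped, and in each the array numbered 1 was higher, by 0.84 in the Flk-1+/Etv2+ and 0.98 in the Flk-1+/Etv2- cells. The difference between the groups, -0.56 (SE 0.43, 95% interval -1.69 to 0.57, adjusted p = 0.732), was smaller than either gap.

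Myl7, the regulatory light chain of atrial muscle that is present throughout the early heart tube, had little spread within the groups. It measured 8.45 and 8.62 on the Flk-1+/Etv2+ arrays, against 9.06 and 9.14 on the Flk-1+/Etv2- arrays. The groups were apart by more than the gap within either. The difference was -0.57 (SE 0.11, 95% interval -0.84 to -0.29, adjusted p = 0.142), or 1.48-fold lower. Myl4, the essential light chain of atrial and embryonic muscle, measured 8.21 and 7.99 in the Flk-1+/Etv2+ cells and 8.74 and 8.40 in the Flk-1+/Etv2- cells. Its groups were also apart, with a difference of -0.47 (SE 0.16, 95% interval -0.88 to -0.06, adjusted p = 0.365). A dim further probe set of Myl4 differed by -0.10 with overlapping arrays.

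The promoters of Actc1 and Myl7, which had the smallest p of the 10 genes, and of Tnnt2, the only gene of the 10 with a difference above 0, are shown as the 250 bases before the RefSeq start. Capitals mark the motifs that were found, a CArG box in Actc1 and Myl7 and, on the opposite strand of Tnnt2, the motif AGATAA that GATA factors are known to bind.
Actc1: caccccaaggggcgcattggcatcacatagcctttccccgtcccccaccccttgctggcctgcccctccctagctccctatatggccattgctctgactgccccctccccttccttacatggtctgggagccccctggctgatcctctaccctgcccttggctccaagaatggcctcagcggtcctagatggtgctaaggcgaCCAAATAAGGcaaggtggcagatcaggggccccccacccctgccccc
Myl7: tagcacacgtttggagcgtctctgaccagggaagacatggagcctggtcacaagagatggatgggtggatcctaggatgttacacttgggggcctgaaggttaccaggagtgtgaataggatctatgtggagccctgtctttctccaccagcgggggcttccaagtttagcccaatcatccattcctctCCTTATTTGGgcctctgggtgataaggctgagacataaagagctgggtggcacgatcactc
Tnnt2: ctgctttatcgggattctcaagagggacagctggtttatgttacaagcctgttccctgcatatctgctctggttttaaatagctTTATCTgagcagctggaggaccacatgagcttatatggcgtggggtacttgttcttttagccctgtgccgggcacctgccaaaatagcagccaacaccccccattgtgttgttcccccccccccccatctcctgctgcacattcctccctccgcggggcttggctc
Each is given 5′ to 3′ in the direction of the gene, from RefSeq, build GRCm38.p6. Actc1 lies at chr2:114052876-114053125 on the minus strand, Myl7 at chr11:5898783-5899032 on the minus strand and Tnnt2 at chr1:135836084-135836333 on the plus strand. RefSeq promoters were matched for 9 of the 10 genes, all except Tagln, with 11 starts in all. The CArG box, searched as its full consensus, reads the same pattern on both strands and was found from base 47 to base 38 before the Actc1 start and from base 61 to base 52 before the Myl7 start. It was found at 2 of the 11 starts, and in 1.47% of all 32851 promoters of this length. Letters close to the consensus, such as ccctatatgg in the Actc1 sequence and before the Acta2 start, were not counted or marked. AGATAA, searched on both strands, was found at 1 of the 11 starts, from base 166 to base 161 before the first Tnnt2 start, and in 9.99% of all promoters. Only its exact letters were searched, so similar letters, such as tgataa in the Myl7 sequence, were not marked. TATAAA, searched on both strands, was found at 0 of the 11 and in 12.4% of all promoters. None of the motif matches overlapped another. A match is a description of these letters and does not show that a factor binds there.

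The troponin genes did not share a direction. Tnni1, the slow skeletal troponin I that the embryonic heart uses, measured 7.58 and 7.57 in the Flk-1+/Etv2+ cells and 7.711 and 8.003 in the Flk-1+/Etv2- cells. Its groups were apart, with a difference of -0.28 (SE 0.13, 95% interval -0.62 to 0.05, adjusted p = 0.504). Tnnc1, the calcium-binding troponin C of cardiac and slow muscle, measured 6.80 and 6.88 in the Flk-1+/Etv2+ cells and 7.15 and 7.07 in the Flk-1+/Etv2- cells. Its groups were apart too, and its difference was -0.27 (SE 0.09, 95% interval -0.51 to -0.03, adjusted p = 0.367).

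Tnnt2, the cardiac troponin T that ties the complex to tropomyosin, was the exception. It measured 6.01 and 5.28 in the Flk-1+/Etv2+ cells, against 5.34 and 4.81 in the Flk-1+/Etv2- cells, on 1424967_x_at, a type of probe set that can also bind other sequences. The groups overlapped, and the array numbered 1 was the higher in both. The difference was 0.57 (SE 0.31, 95% interval -0.24 to 1.37, adjusted p = 0.584). Its other probe sets gave 0.59, with overlapping arrays, and 0.30, with arrays apart, so all 3 pointed the same way. Except for 6.01 and 5.61 on array 1 of the Flk-1+/Etv2+ cells, their values lay below the median of the array, where sizes are uncertain.

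Actn2 and Myh6, genes of the assembled sarcomere, were dim in both populations. Actn2, the alpha-actinin of the Z-disc, measured 4.90 and 4.88 in the Flk-1+/Etv2+ cells and 5.06 and 4.84 in the Flk-1+/Etv2- cells. Myh6, the alpha myosin heavy chain of cardiac muscle, measured 3.47 and 3.43 in the Flk-1+/Etv2+ cells and 3.41 and 3.49 in the Flk-1+/Etv2- cells. All 8 of these values lay below the array medians and the groups overlapped. The 95% interval of the difference ran from -0.36 to 0.23 for Actn2 and from -0.24 to 0.23 for Myh6. A probe set that the annotation gives to both Myh7 and Myh6 measured 5.95 and 5.59 in the Flk-1+/Etv2+ cells and 5.32 and 5.63 in the Flk-1+/Etv2- cells, and overlapped as well. A second such probe set read between 2.87 and 2.99 on all arrays, near the bottom of the scale.

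**Figure D2:**
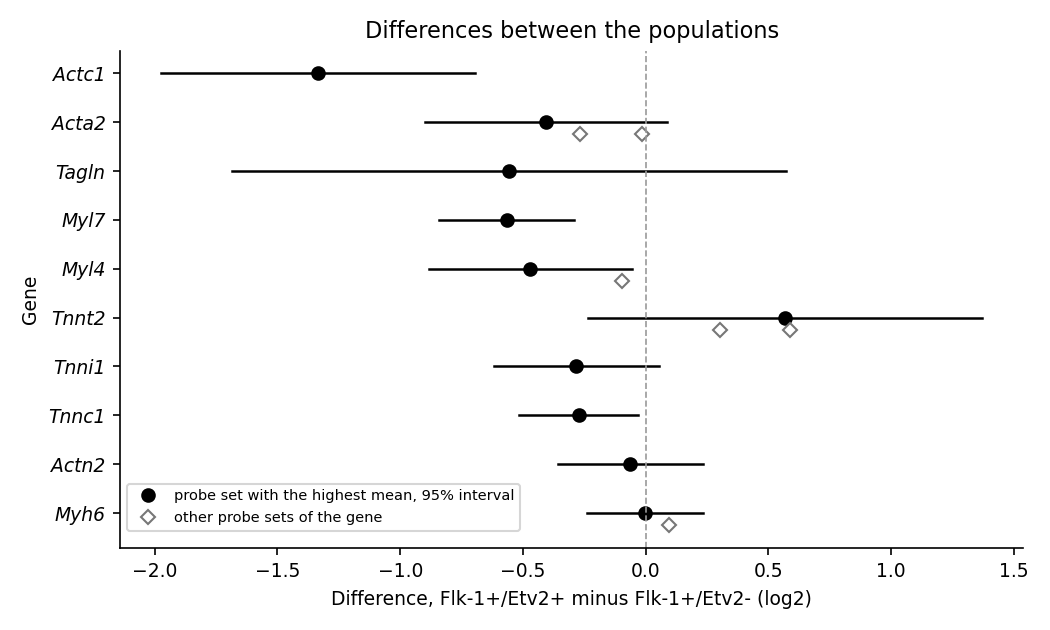
Difference between the populations (horizontal axis, log2, Flk-1+/Etv2+ minus Flk-1+/Etv2-) for each gene (vertical axis). Filled points are the probe set with the highest mean with its 95% interval from the fit, and open diamonds the gene's other probe sets. The intervals of Actc1, Myl7, Myl4 and Tnnc1 lie below 0, those of the other 6 genes include 0, and the points of Tnnt2 lie above 0.

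Other sarcomere genes had a median difference near that of all genes. Of 40 listed 38 were measured, with a median of -0.01, and 28 of them had a mean under 6. In limma 0 were called. At an unadjusted p under 0.05, 2 were higher, against 7.07% of all genes, and 2 lower, against 4.64%. Arrays were apart as higher for 5 of 38, against 22.4% of all genes, and as lower for 11, against 17.0%. Of the 10 with a mean of at least 6, 3 were apart as lower and 0 as higher, with a median of -0.07. The 3 of the 38 with the smallest p were all dim. Xirp1, an actin-binding protein of the intercalated disc, measured 4.68 and 4.41 in the Flk-1+/Etv2+ cells and 4.14 and 3.80 in the Flk-1+/Etv2- cells. Myl2, the ventricular regulatory light chain, and Lmod3, an actin nucleator of skeletal muscle, differed by -0.34 (SE 0.09) and -0.30 (SE 0.11). Acta1, the skeletal muscle actin, was chosen after its values were seen as the counterpart of Actc1. It measured 6.82 and 6.23 in the Flk-1+/Etv2+ cells and 6.90 and 6.41 in the Flk-1+/Etv2- cells, a difference of -0.13 (SE 0.26) with overlapping arrays.

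Calcium handling genes had a median of -0.03, with 0 of 17 called. Arrays were apart as higher for 4 of 17, against 22.4% of all genes, and as lower for 4, against 17.0%. Cacna1c, the pore of the L-type calcium channel, measured 5.90 and 5.22 in the Flk-1+/Etv2+ cells, against 6.24 and 6.42 in the Flk-1+/Etv2- cells (difference -0.77, SE 0.25, adjusted p = 0.340). Sln, a regulator of the calcium pump, and Casq2, the calcium buffer of cardiac stores, were dim and differed by 0.28 (SE 0.12) and 0.20 (SE 0.10). Other smooth muscle and cytoskeletal contractile genes had a median of -0.06, with 0 of 28 called. Of the 28, 7 were apart as higher and 7 as lower, against the same 22.4% and 17.0% of all genes. Smtn, a smooth muscle actin-binding protein, differed by 0.49 (SE 0.15), Tagln2, a relative of Tagln, by 0.29 (SE 0.10) and Csrp2, a LIM protein of smooth muscle, by -0.28 (SE 0.10). Myl9, the smooth muscle regulatory light chain, was chosen after its values were seen. It measured 7.27 and 6.34 in the Flk-1+/Etv2+ cells and 8.01 and 7.15 in the Flk-1+/Etv2- cells, and overlapped with the same higher array in each group as Tagln.

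Transcription factors that control contractile genes had a median difference of -0.12. Of 19 factors 0 were called. Arrays were apart as lower for 8 of 19, against 17.0% of all genes, and as higher for 1, against 22.4%. At an unadjusted p under 0.05, 7 were lower, against 4.64% of all genes, and 1 was higher, against 7.07%. Hand2, a basic helix-loop-helix factor of the heart, measured 8.18 and 8.43 in the Flk-1+/Etv2+ cells, against 9.14 and 9.38 in the Flk-1+/Etv2- cells (difference -0.96, SE 0.14, adjusted p = 0.107). As the mean over its probe sets its difference was -0.30. Isl1, a homeobox factor of the second heart field, differed by -0.88 (SE 0.17, adjusted p = 0.149). Mef2a, a MADS-box factor of muscle, pointed the other way at 0.58 (SE 0.09, adjusted p = 0.110). Srf, which encodes serum response factor and was chosen after its values were seen, measured 9.65 and 9.63 in the Flk-1+/Etv2+ cells and 9.95 and 9.91 in the Flk-1+/Etv2- cells (difference -0.28, SE 0.09, adjusted p = 0.318). Its cardiac and smooth muscle partner Myocd, chosen in the same way, differed by -0.28 (SE 0.19) with overlapping arrays.

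**Figure D3:**
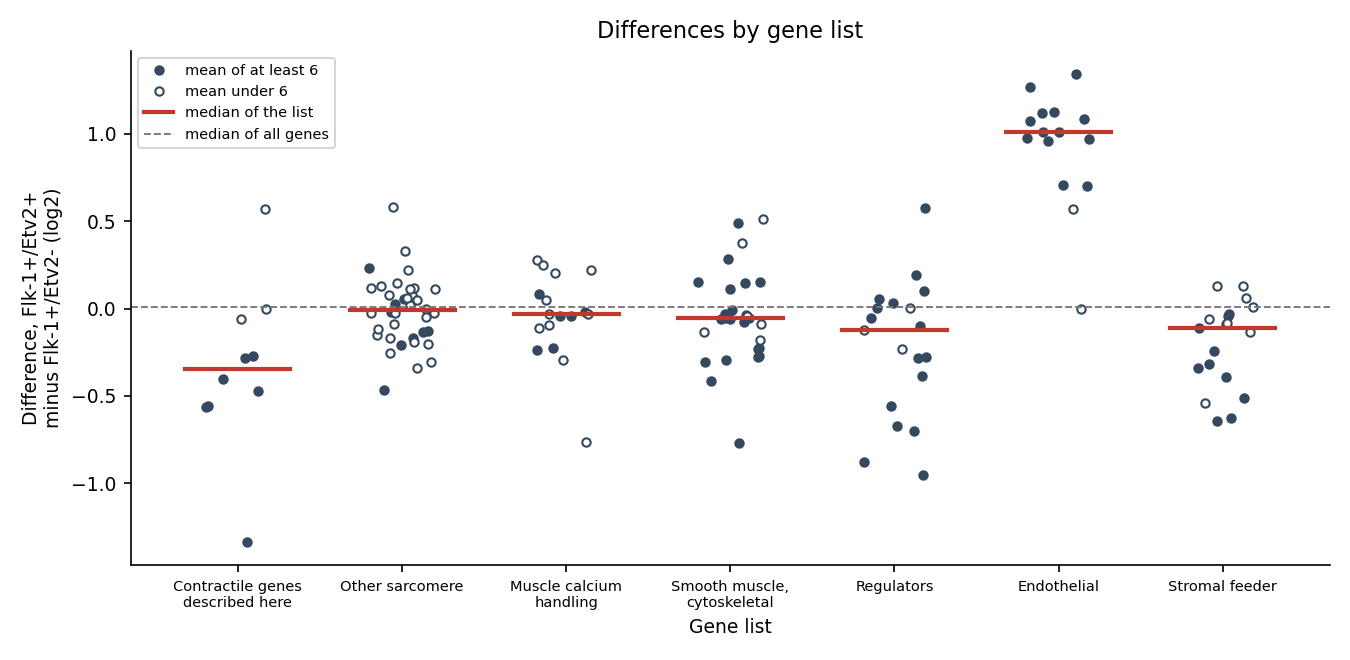
Difference between the populations (vertical axis, log2, Flk-1+/Etv2+ minus Flk-1+/Etv2-) for every measured gene of 7 lists (horizontal axis). Filled points are genes with a mean of at least 6, open points dimmer genes, red lines the list medians and the dashed line the median of all genes. The contractile genes have a median of -0.34, the other muscle lists medians between -0.12 and -0.01, the endothelial markers 1.01 and the stromal feeder markers -0.11.

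Markers of other cell types also differed in value between the populations, and their part in the differences of the contractile genes was not tested. Over all genes, 22.4% had arrays apart as higher and 17.0% as lower. Of 15 endothelial markers 14 had arrays apart as higher and 0 as lower, and their summed linear signal was 10090 and 10503 on the Flk-1+/Etv2+ arrays, against 4915 and 5291 on the Flk-1+/Etv2- arrays. Flt4, Esam and Egfl7 differed by 1.27 (SE 0.11), 1.07 (SE 0.10) and 0.97 (SE 0.09). Of 10 markers of undifferentiated stem cells 3 had arrays apart, all as lower, and the sum was 4051 and 3249 on the Flk-1+/Etv2+ arrays against 8045 and 5833 on the Flk-1+/Etv2- arrays. These were Tdgf1, Pou5f1 and Sox2, at -1.22 (SE 0.38), -1.15 (SE 0.38) and -0.71 (SE 0.29). Epiblast can also express these genes, and early mesoderm can express Tdgf1 and Pou5f1. That sum depends largely on Tdgf1, the brightest of the 10 by mean, at 11.28 and 10.43 against 12.45 and 11.71. The median difference of the 10 was -0.35, with 8 below 0. Esrrb and Utf1 lay above 0, at 0.22 and 0.02. Of 9 measured blood markers 4 were apart as higher and 3 as lower. The sum was 935 and 1054 on the Flk-1+/Etv2+ arrays against 737 and 860 on the Flk-1+/Etv2- arrays. The examples were Itga2b at 0.70 (SE 0.11), Spi1 at 0.26 (SE 0.09) and Ptprc at -0.30 (SE 0.10), which was dim.

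Stromal markers are set beside Acta2 and Tagln, which fibroblasts and stromal cells also make. Of 19 measured stromal markers 4 had arrays apart as lower, near the 17.0% of all genes, and 0 as higher, against 22.4%. Their median difference was -0.11, and their summed signal was 5844 and 3166 on the Flk-1+/Etv2+ arrays against 6385 and 3986 on the Flk-1+/Etv2- arrays. Cxcl12, Col1a1 and Fbln2 differed by -0.63 (SE 0.11), -0.54 (SE 0.18) and -0.39 (SE 0.12). Of the 19, 8 had a mean under 6, Dcn, Lum, Postn and Fap among them.

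The larger contrast in stromal markers was between array numbers. Array 1 gave the higher value for 15 of 19 in both populations, against 45.9% of all genes. The median of array 1 minus array 2 was 0.33 in the Flk-1+/Etv2+ and 0.45 in the Flk-1+/Etv2- cells, where all genes had medians of 0.07 and 0.05. Col3a1, chosen after its values were seen, was higher on array 1 by 2.35 in the Flk-1+/Etv2+ and 1.96 in the Flk-1+/Etv2- cells. For the 10 contractile genes this median was 0.13 in the Flk-1+/Etv2+ and 0.20 in the Flk-1+/Etv2- cells, also above that of all genes. Of the 10, 6 were higher on the array numbered 1 in both populations, against 45.9% of all genes. Tagln, Tnnt2 and Acta2 were so by 0.84, 0.72 and 0.39 in the Flk-1+/Etv2+ cells and by 0.98, 0.53 and 0.33 in the Flk-1+/Etv2- cells. Myl7 ran the other way, at -0.17 in the Flk-1+/Etv2+ and -0.08 in the Flk-1+/Etv2- cells, so the spread between arrays was not common to the 10 genes. Actc1 was higher on the array numbered 1 by 0.67 in the Flk-1+/Etv2+ and 0.18 in the Flk-1+/Etv2- cells, both smaller than its difference between the populations.

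**Figure D4:**
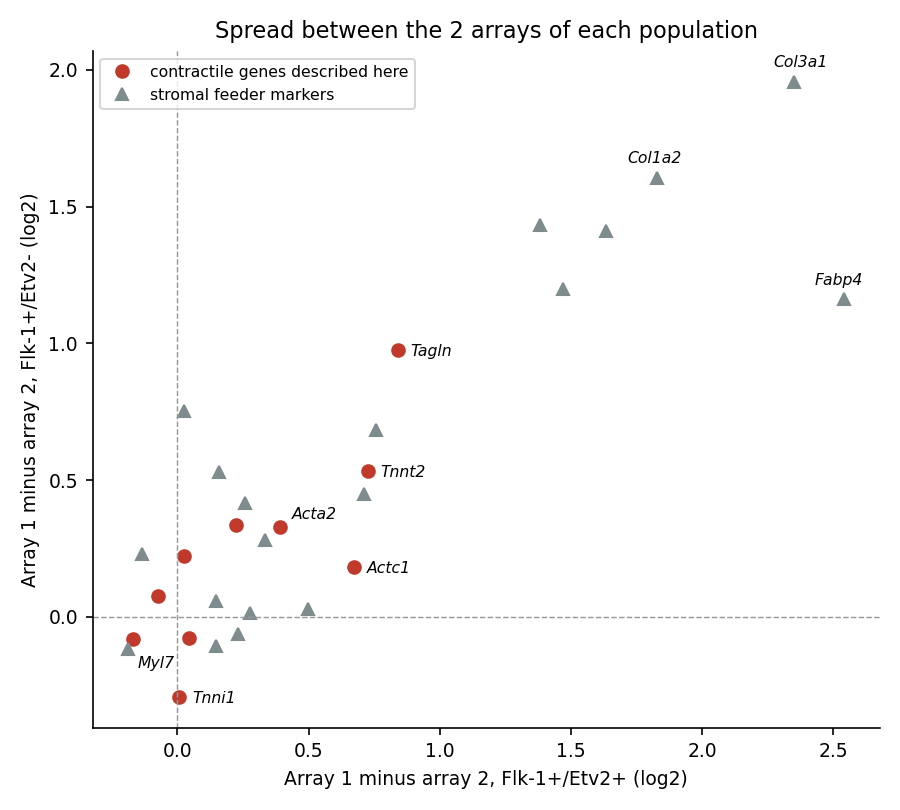
Value on the array numbered 1 minus that on the array numbered 2 (log2) within the Flk-1+/Etv2+ population (horizontal axis) and within the Flk-1+/Etv2- population (vertical axis). Red circles are the 10 contractile genes and grey triangles the 19 stromal markers. Tagln, Tnnt2 and Acta2 lie above 0 in both populations, as do 15 of the stromal markers, and Myl7 lies below 0 in both.

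The pattern of Actc1 over the 4 arrays was compared with that of the 10172 other genes with a mean of at least 6, as the Euclidean distance between values centred on each gene's mean. The closest were Sfrp1, a secreted Wnt antagonist, Fst, which encodes the activin antagonist follistatin, Pth1r, a parathyroid hormone receptor, Ret, a receptor tyrosine kinase, and Snai1, a repressor of epithelial genes, at distances from 0.174 to 0.260. Their differences between the populations ran from -1.32 for Ret to -1.22 for Snai1. All 5 had arrays apart as lower, where 17.0% of all genes did. Both follow from choosing the genes closest to Actc1 on the same arrays and are not a separate result. Such a likeness over 4 arrays describes these arrays and carries no test.

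**Figure D5:**
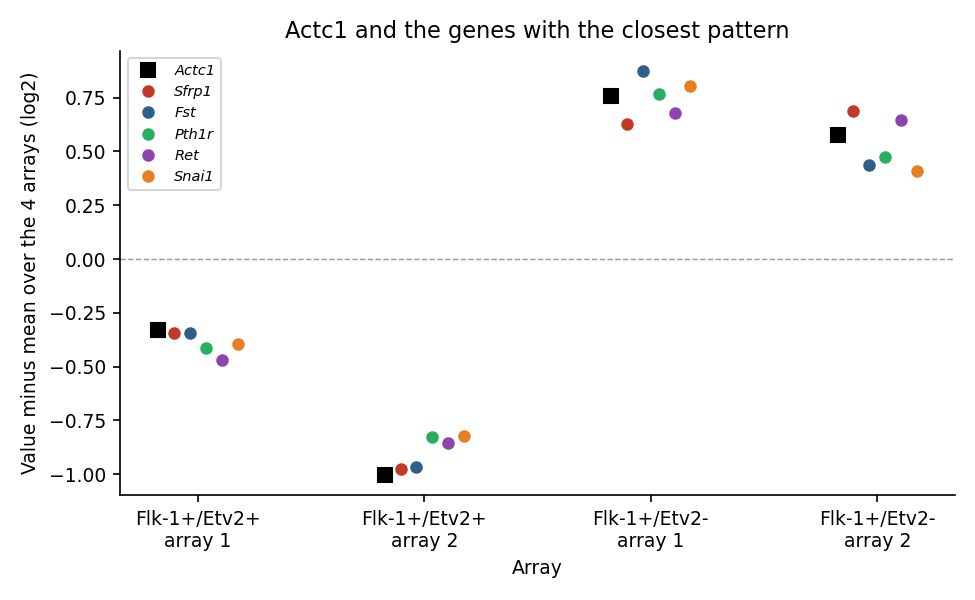
Value minus the mean over the 4 arrays (vertical axis, log2) on each array (horizontal axis) for Actc1 (black squares) and the 5 genes with the closest pattern (coloured circles). All 6 genes lie below their mean on both Flk-1+/Etv2+ arrays, lowest on array 2, and above it on both Flk-1+/Etv2- arrays.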

How the data were processed

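Total RNA of 4 sorted samples was labelled with biotin by an Affymetrix 3′ kit and hybridised to arrays, per the labels' protocols. Per the submitters' processing notes, the authors used RMA and R 2.8.0, and what they deposited is 1 log2 value for each probe set and array (the range, 2.16 to 14.93, shows the log base). RMA subtracts background, brings arrays to a common distribution and combines probes, so values are relative and compressed near background. Detection calls were not used here, and the number of arrays limits the precision.

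Symbols came from the platform annotation, checked through Entrez identifiers against the RefSeq genes of GRCm38.p6 for names (34741 of 34945 probe sets with 1 symbol matched, 0 symbols changed). Groups came from sample titles. The groups were compared with limma 3.58.1 in R 4.3.3 (lmFit, eBayes, group only, 2 residual and 2.68 prior degrees of freedom), two-sided, with Benjamini-Hochberg adjustment over 18193 genes and a threshold of 0.05. On simulated data the fit was checked only for returning the simulated differences on average, and how often it called them is not given here. The genes, lists and alternatives were chosen with earlier results of these data known. Named are the 10 genes, Etv2, Kdr, per other list the 3 genes with the smallest p, the 5 nearest to the gene with the largest difference, and genes said in the text to be picked later from their values. Summed signals are sums of 2 to the power of the log2 value, so the brightest genes of a list weigh most. List genes without a match among the measured genes were not used here. Figures were drawn with matplotlib 3.10.9.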

Additional observations from a re-analysis of the deposited data

How the results depend on the processing

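Over 11 alternatives to the fit no contractile gene was called. Of 107 recomputed differences of the 10 genes 101 kept their direction and 6 turned. Many of the 107 could not turn, because the alternative left the difference itself unchanged and altered only its error or adjustment. This held for the fits over every probe set and over genes with a mean of at least 6. It also held for the trend with robust estimation and for the array number as a block. Averaging probe sets likewise changes nothing for a gene with 1 probe set. Myh6 turned to 0.046 with the mean over its probe sets, 0.0079 after quantile normalization run again, 0.036 with arrays centred on their medians, 0.018 without array 2 of the Flk-1+/Etv2+ cells and 0.036 without array 2 of the Flk-1+/Etv2- cells. Actn2 turned to 0.049 without array 1 of the Flk-1+/Etv2- cells. Leaving out each array gave -0.042 to 0.036 for Myh6 and -0.17 to 0.049 for Actn2. Calls over all genes were 66 higher and 13 lower among genes with a mean of at least 6, where the median of the 7 contractile genes left was -0.47, and 81 higher and 31 lower when a mean-variance trend was combined with robust estimation. Averaging probe sets put 1 contractile gene, Tnnt2, apart as higher. The filter left fewer genes, and the cause of these changes was not tested.

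Leaving out each array gave a median of the 10 genes from -0.42 to -0.24. The difference ran from -1.67 to -0.997 for Actc1, -0.65 to -0.48 for Myl7, -1.04 to -0.07 for Tagln, -0.60 to -0.21 for Acta2, -0.64 to -0.30 for Myl4, -0.43 to -0.14 for Tnni1, -0.31 to -0.23 for Tnnc1 and 0.21 to 0.93 for Tnnt2. With the array number as a replicate block limma called 0 genes. The block cannot change a difference between groups of equal size, so Actc1 stayed at -1.33, with an adjusted p of 0.0996. Within each array number, Tagln was lower in the Flk-1+/Etv2+ than in the Flk-1+/Etv2- cells, at 8.80 against 9.42 and 7.96 against 8.44. Tnnt2 was higher in the Flk-1+/Etv2+ cells, at 6.01 against 5.34 and 5.28 against 4.81. Over the alternatives the smallest limma adjusted p was 0.107 for Tagln, 0.118 for Tnnt2 and 0.123 for Acta2. In the main fit these were 0.732, 0.584 and 0.511. The labels do not say what the numbers share. The deviations of same-numbered arrays correlated at 0.54 over 18193 genes, a hint from the data and not from the design. Of the 333 recomputed differences of the 31 other named genes 0 turned and 6 were newly called, but 18 moved by over 1.5 times. Many of the 333 also could not turn, for the same reason as above. Averaged over their probe sets, Hand2 was at -0.30 (adjusted p = 0.572), Mef2a at 0.38 and Ret at -0.79. Leaving out each array gave -1.11 to -0.43 for Cacna1c and -1.08 to -0.35 for Sox2. Depth is not defined for arrays, and values below the array median limit Actn2, Myh6 and Tnnt2.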

Other observations

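Mef2c, a MADS-box factor of heart muscle chosen after its values were seen, measured 6.36 and 8.01 on the Flk-1+/Etv2+ arrays and 6.06 and 7.93 on the Flk-1+/Etv2- arrays. In each population the array numbered 2 was thus the higher, by more than the distance between the populations (0.19, SE 0.82, limma adjusted p = 0.973). The direction is opposite to that of Tagln and Col3a1, which were higher on the arrays numbered 1. What differed between the arrays was not tested.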
